A study of Mus musculus with 10 samples.

Results

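The pluripotency network genes studied here are 31 genes, listed by symbol, that mark or maintain mouse embryonic stem cells. All 31 were in the platform's gene table, among 18193 genes measured, and each was read by its brightest probe set, judged by the mean over 10 arrays. The samples were mouse embryonic fibroblasts described as secondary and inducible, of a 129/SvJ x C57/B6 hybrid strain. Such cells carry the factor transgenes (Pou5f1, Sox2, Klf4, Myc) under a doxycycline switch, and so did the control. The control was uninduced and kept for 96 h in medium with 0.5% serum. The induced groups received doxycycline, labelled as 2 ug/ul, in 15% serum for 96 h and were parted by how often the cells had divided on average, 0 times, 1 time, 2 times, or at least 3 times. Each of the 5 groups had 2 arrays. The sources used here do not say how the cohorts were separated, and the titles of the cohort of 3 or more divisions name the induction alone. Doxycycline, serum and division differed together between the control and the dividing cohorts and cannot be told apart.

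In pluripotent cells a core of transcription factors, with Nanog beside Pou5f1 and Sox2, binds its own genes and those of many partners, so that the network holds itself on. Signals of the LIF, Nodal and FGF families act on it from outside, and RNA-binding proteins and DNA-modifying enzymes act below it. Fibroblasts keep most of these genes silent, and their return is a usual sign that reprogramming is complete. The comparison of the control with the cohorts therefore asked which of them, if any, had moved in the initial phase.

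Of the 31 members, 20 stayed at background-like readings on all 10 arrays, among them Nanog, Zfp42, Lin28a, Lin28b, Prdm14, Dppa2, Dppa3 and Dppa4. In the cohort of 3 or more divisions L1td1 was higher than in the control, and Tet1, Lefty1 and Lefty2 were lower, 4 of 31 members beside 27.6% of all genes. Of these, Lefty2 was among the 20, and L1td1 was background-like on all arrays but 1. In the cohorts of 0, 1 and 2 divisions 0 members passed limma's test against the control, beside 0.297%, 1.24% and 6.12% of all genes. With the replicate number in the model as a block, Lefty1 passed after 1 division, beside 7.02% of all genes. Lefty1 and Tet1 passed so after 2 divisions, beside 15.5%.

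The table holds no detection calls, so a reading was called background-like where it did not exceed the 95th percentile, on its own array, of 73 odorant, vomeronasal and bitter taste receptor genes, which fibroblasts hardly use. This limit lay between 4.63 and 4.91 in log2 intensity. Probe sets differ in affinity, so a reading below the limit can still hold some transcript, and readings do not rank genes by abundance. On single arrays 6 to 9 of the 31 members exceeded the limit, beside 63.3% to 67.2% of all genes. On all 10 arrays 29.2% of all genes were background-like, against 64.5% of the members (20 of 31). Members above the limit on all arrays numbered 5, Rif1, Tet1, Lefty1, Esrrb and Utf1. The remaining 6, Tbx3, Fgf4, Dppa5a, Zscan10, Dnmt3l and L1td1, exceeded it on some arrays. At the 99th percentile of the receptor genes Utf1 was background-like on all arrays. Against the median of all genes Utf1 and Esrrb both were. The 9 measured fibroblast markers, collagens and Pdgfra among them, were above the limit on every array, with readings of 7.40 to 14.64.

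**Figure D1:**
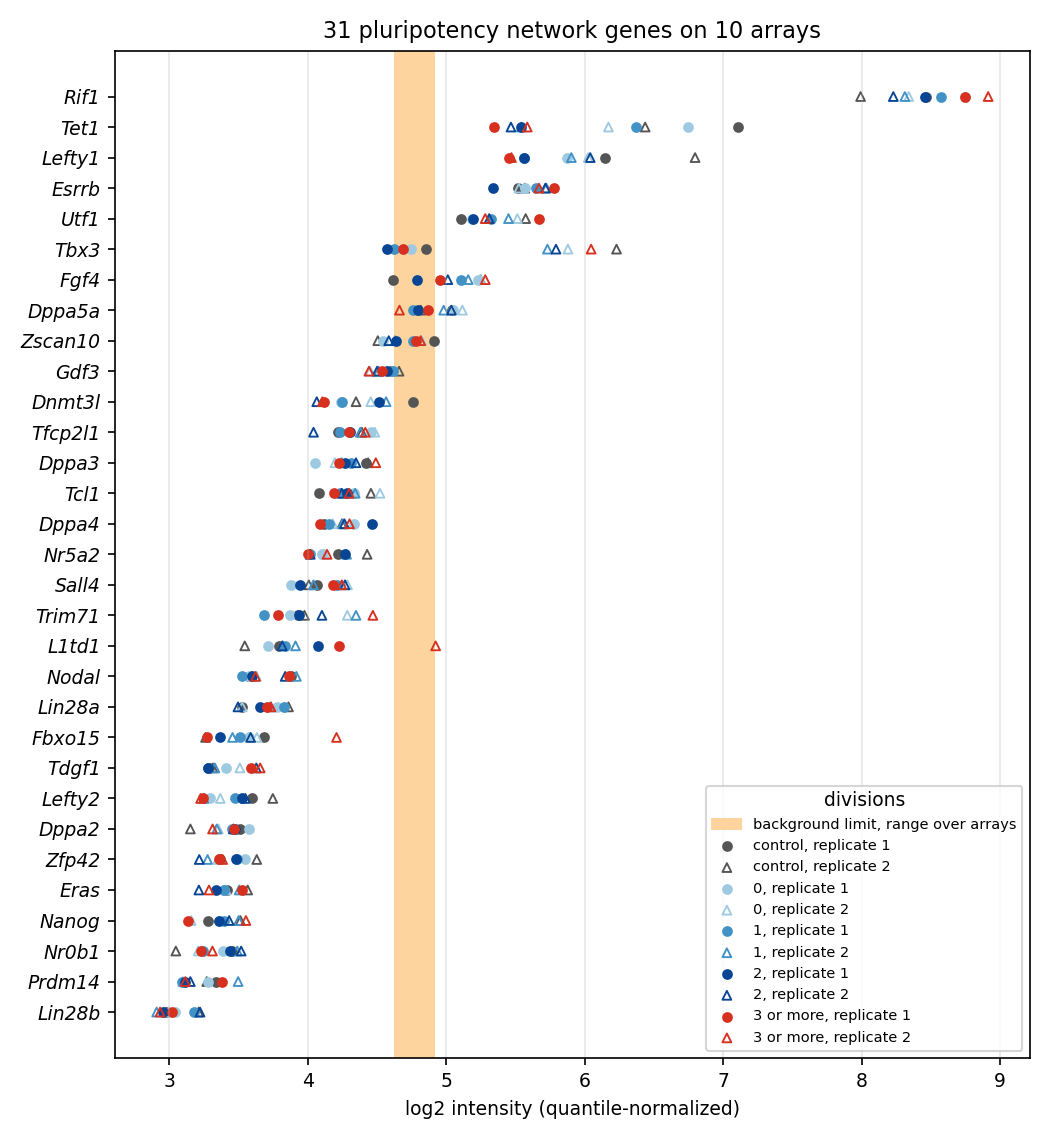
Log2 intensity of the 31 members on the 10 arrays, with colours for the groups, filled circles for replicate 1 and open triangles for replicate 2. The shaded band is the background limit (4.63 to 4.91 over the arrays), and 20 members lie below it on every array.

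Among the transcription factors of the core, Nanog, the homeodomain factor without which cells do not reach full pluripotency, read 3.28 and 3.51 in the control. It read 3.36 and 3.16 after 0 divisions, 3.40 and 3.50 after 1, 3.36 and 3.43 after 2, and 3.13 and 3.55 after 3 or more. The readings of each cohort overlapped those of the control. Both readings after 0 divisions lay below those after 1 and, narrowly, those after 2. The log2 change in the cohort of 3 or more divisions was -0.05 (95% interval -0.43 to 0.33), which limma's test did not call (adjusted p = 0.857). Zfp42, the zinc finger gene also known as Rex1, ranged from 3.22 to 3.63, Prdm14 from 3.09 to 3.50, the nuclear receptor gene Nr0b1 from 3.05 to 3.52 and the orphan receptor gene Nr5a2 reached at most 4.43. Tfcp2l1, a factor of the naive state, lay between 4.04 and 4.48, and Sall4, a zinc finger partner of Pou5f1, between 3.88 and 4.29. Each of these 6 stayed under the limit on all arrays.

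Esrrb, an orphan nuclear receptor, was the core factor that read above the limit, at 5.34 to 5.78. It stood at 5.54 ± 0.04 in the control and 5.72 ± 0.08 after 3 or more divisions (SD, n = 2 per group), and did not pass (adjusted p = 0.397). That reading comes from a probe set of a type that can match several transcripts. The other Esrrb probe sets, with mean readings of 4.16 and 3.67, were below the limit on all arrays. Utf1, a chromatin-bound factor of stem cells, ranged from 5.10 to 5.67, with 5.34 ± 0.33 in the control and 5.47 ± 0.27 after 3 or more divisions (adjusted p = 0.69). Its dimmer probe sets exceeded the limit on 9 arrays and on 1 array. Their log2 changes after 3 or more divisions were 0.03 and 0.48. Zscan10, a zinc finger gene, read 4.51 to 4.91 and crossed the limit on 3 arrays.

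Tbx3, a T-box factor that supports self-renewal, differed more between replicate numbers than between groups. It read 4.85 and 6.23 in the control, 4.74 and 5.88 after 0 divisions, 4.62 and 5.73 after 1, 4.57 and 5.79 after 2, and 4.69 and 6.05 after 3 or more. Replicate 2 was the higher array in all 5 groups, by 1.11 to 1.38, while the group means spanned only 5.18 to 5.54. The change after 3 or more divisions was -0.17, with an interval from -1.82 to 1.47 that is the widest of all members, and it stayed uncalled with the replicate number in the model. The brightest Tbx3 probe set is of a type that can match several transcripts. A dimmer Tbx3 probe set was also higher in replicate 2 in all 5 groups, by 0.85 on average. The remaining Tbx3 probe sets were below the limit on all arrays, and replicate 2 was higher there by 0.07 to 0.23 on average, not in all groups.

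Tet1, which encodes a dioxygenase that oxidises methylated cytosine, was lower than in the control after 3 or more divisions. It read 7.11 and 6.44 in the control and 6.75 and 6.17 after 0 divisions. After 1 division it read 6.37 and 5.54, after 2 divisions 5.54 and 5.47, and after 3 or more 5.35 and 5.58. The means declined in the order of the labelled divisions, the arrays of 0 divisions overlapped those of the control, and those of the later cohorts lay below the control. In the cohort of 3 or more divisions the log2 change was -1.31 ± 0.33 (SE), with adjusted p = 0.0199 by limma. After 1 division the change was -0.82 and did not pass (adjusted p = 0.304, or 0.0851 with the replicate number as a term). After 2 divisions the change was -1.27 ± 0.33 (adjusted p = 0.0637), called once the replicate number was in the model as a block (adjusted p = 0.0104). The means of 2 and of 3 or more divisions, 5.50 and 5.47, differed by less than the spread of either group's arrays. The slope over 0, 1 and 2 divisions was -0.48 ± 0.14 per division (adjusted p = 0.394), and passed with the block (adjusted p = 0.0356).

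The 3 brighter of the 4 Tet1 probe sets all lay lower after 3 or more divisions, by -1.31, -1.11 and -0.60, while the dimmest, below the limit on all arrays, differed by -0.05. The mean of the 4 gave -0.77 (adjusted p = 0.0353). The brightest probe set can match several transcripts. With such probe sets left out, Tet1 had a change of -1.11 and missed the threshold (adjusted p = 0.0818).

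The promoters of Tet1 and L1td1, the called members with a matched window, and of Nanog, which was not called, are shown to let their content of CpG, the dinucleotide in which Tet1 acts, be compared. Each is the 300-base window from 250 bases before to 50 bases after a start site in RefSeq (GRCm38.p6), written 5′ to 3′ on the gene's strand with each CpG in capitals. Tet1 lies at chr10:62887275-62887574 (minus strand), L1td1 at chr4:98726504-98726803 (plus strand) and Nanog at chr6:122707239-122707538 (plus strand).
Tet1: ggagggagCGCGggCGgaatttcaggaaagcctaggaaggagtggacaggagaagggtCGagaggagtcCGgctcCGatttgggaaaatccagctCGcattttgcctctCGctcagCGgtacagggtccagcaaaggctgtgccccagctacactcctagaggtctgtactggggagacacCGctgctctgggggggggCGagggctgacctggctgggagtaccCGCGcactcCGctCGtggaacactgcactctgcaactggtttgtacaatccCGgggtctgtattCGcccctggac
L1td1: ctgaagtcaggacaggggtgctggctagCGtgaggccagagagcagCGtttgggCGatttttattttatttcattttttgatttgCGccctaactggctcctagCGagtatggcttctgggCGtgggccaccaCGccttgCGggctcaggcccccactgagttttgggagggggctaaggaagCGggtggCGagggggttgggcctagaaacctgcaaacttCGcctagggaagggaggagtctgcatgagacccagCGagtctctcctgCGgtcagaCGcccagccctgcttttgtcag
Nanog: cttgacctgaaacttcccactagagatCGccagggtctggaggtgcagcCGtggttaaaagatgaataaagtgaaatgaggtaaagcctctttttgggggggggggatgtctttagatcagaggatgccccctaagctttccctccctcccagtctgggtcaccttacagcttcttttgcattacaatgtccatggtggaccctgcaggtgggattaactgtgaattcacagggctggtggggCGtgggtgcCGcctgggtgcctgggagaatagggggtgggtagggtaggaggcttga

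The Tet1 window held 17 CpGs, that of L1td1 14 and that of Nanog 4. Of all 32851 windows, 31.4% held at least 17, 36.3% at least 14 and 68.6% at least 4. Windows were matched for 19 members, 24 windows in all, with 2 CpGs at the least for Nr5a2, 28 at the most for Fgf4 and a median of 7.5 against 7 over all windows. The octamer ATTTGCAT of POU factors, searched on both strands, was found in 1 of the 24, that of Zfp42, and in 1.74% of all windows. The E-box CACGTG was in the windows of Lin28b and Dnmt3l, and in 7.15% of all windows. TATAAA was in those of Nr0b1, Nr5a2 and Tfcp2l1, and in 13.6% of all. Only exact letters were counted, so a site that differs in 1 letter was missed. The letters of none of the 3 motifs contain another, and a match or the lack of one here describes the sequence only. Several members are close neighbours in the RefSeq gene order. Dppa3 has Nanog on one side and Gdf3 on the other with 0 protein-coding genes between, Dppa2 and Dppa4 are adjacent, and Lefty1 and Lefty2 have 1 between them.

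L1td1, an RNA-binding protein gene of LINE origin that is active in stem cells, was the only member called higher in these comparisons without the block. It read 3.79 and 3.54 in the control, 3.71 and 3.82 after 0 divisions, 3.83 and 3.91 after 1, and 4.07 and 3.82 after 2. After 3 or more divisions it read 4.23 and 4.92, above all other arrays, and the reading of 4.92 was its only one over the limit. The log2 change against the control was 0.91 ± 0.22 (SE, adjusted p = 0.0179), and against 0 divisions 0.81 ± 0.22 (adjusted p = 0.0485). Since 9 of 10 readings were under the limit, these sizes are not exact folds. Without the brighter array, replicate 2 of the cohort, the changes were 0.56 (adjusted p = 0.0836) and 0.46 (adjusted p = 0.229).

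The Nodal family held the other members that moved. Lefty1 encodes a secreted inhibitor of Nodal. It read 6.15 and 6.80 in the control, 5.87 and 6.02 after 0 divisions, 5.56 and 5.90 after 1, 5.56 and 6.04 after 2, and 5.45 and 5.47 after 3 or more. All 8 induced arrays lay below both control arrays. The change after 3 or more divisions was -1.01 ± 0.24 (SE), 2.01-fold lower (adjusted p = 0.0172). After 0 divisions it was -0.52 ± 0.24 (adjusted p = 0.467), after 1 -0.74 (adjusted p = 0.21) and after 2 -0.67 (adjusted p = 0.16). With the replicate block the cohorts of 1 and 2 divisions passed as well (adjusted p = 0.032 and 0.0247).

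Lefty2, its close relative, read 3.60 and 3.75 in the control, 3.29 and 3.37 after 0 divisions, 3.47 and 3.25 after 1, 3.53 and 3.55 after 2, and 3.24 and 3.23 after 3 or more. The induced arrays were again all below the control, but every reading was background-like. Its change of -0.44 ± 0.12 after 3 or more divisions passed limma's test (adjusted p = 0.0266). It was 0 with a floor of 16, which lies above all its readings, and median centring ended the call (adjusted p = 0.0705). Nodal itself, the ligand, ranged from 3.52 to 3.92, its co-receptor gene Tdgf1 (Cripto) from 3.28 to 3.66 and the ligand gene Gdf3 from 4.44 to 4.66, all below the limit. Tdgf1 read 3.59 and 3.66 after 3 or more divisions against 3.29 and 3.31 in the control, and did not pass (adjusted p = 0.116).

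Fgf4, the growth factor that drives stem cells out of the ground state, read 4.62 to 5.28, over the limit on 9 arrays. Its groups stood at 4.93 ± 0.45 in the control and 5.12 ± 0.23 after 3 or more divisions (SD, adjusted p = 0.58). The other 3 Fgf4 probe sets were below the limit on all arrays. Eras, a constitutively active Ras of stem cells, ranged from 3.21 to 3.57 and Tcl1, a coactivator of the Akt kinase, from 4.08 to 4.52.

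Rif1, which controls replication timing and is present in dividing cells of many kinds, was read above the limit on every array. Its readings were 8.46 and 7.99 in the control, 8.75 and 8.34 after 0 divisions, 8.57 and 8.31 after 1, 8.46 and 8.23 after 2, and 8.75 and 8.91 after 3 or more. The arrays of 3 or more divisions lay above the control, and those of the other cohorts overlapped it. The change was 0.60 ± 0.21 (SE) and missed the threshold (adjusted p = 0.0663), which it passed with the replicate block (adjusted p = 0.0163). Rif1 also passed without quantile normalization, whether the arrays were centred on their medians or used as deposited, and with dim genes left out. It did not pass with a floor of 16, with the mean of all probe sets or with another variance prior. Nor did it pass with the compared arrays alone, or without the probe sets of types that can match several transcripts. The other 3 Rif1 probe sets gave 0.77, 0.50 and 0.71.

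**Figure D2:**
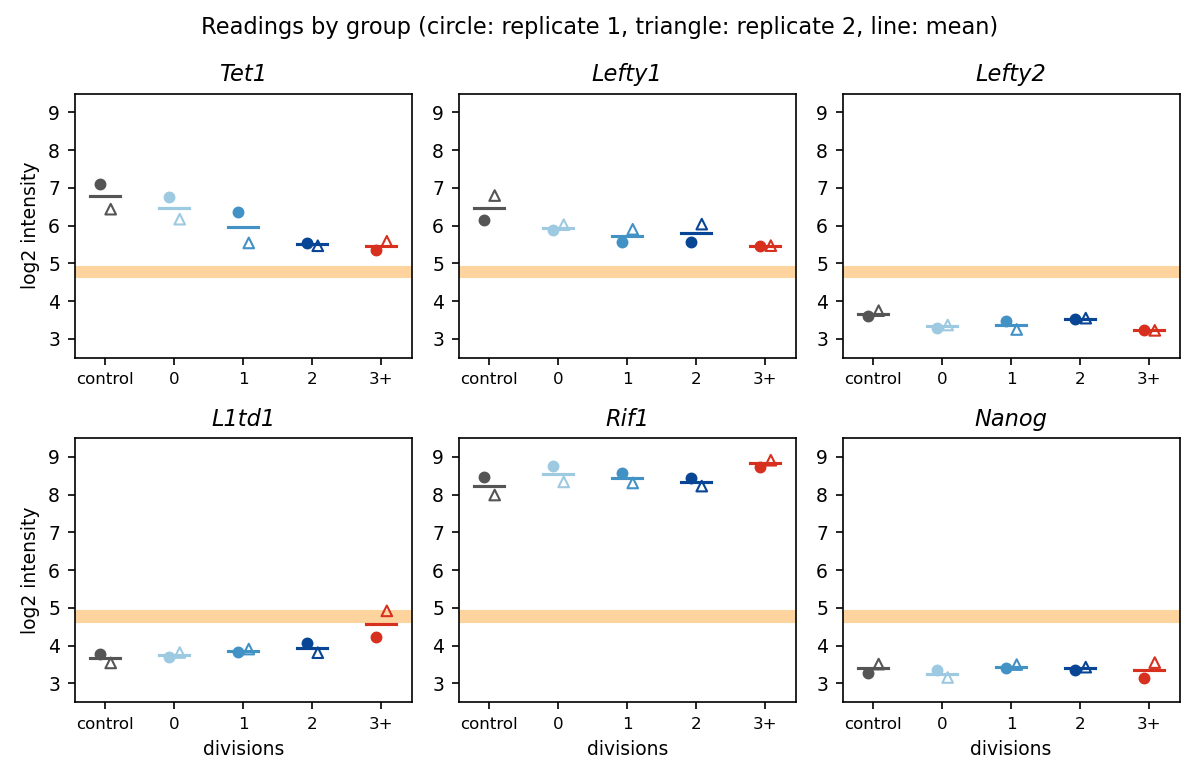
Log2 intensity of 6 members by group, with a circle for replicate 1, a triangle for replicate 2 and a line for the mean of 2 arrays; the band is the background limit. Tet1 and Lefty1 are lower after 3 or more divisions, L1td1 is higher, and Nanog stays between 3.13 and 3.55.

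**Figure D3:**
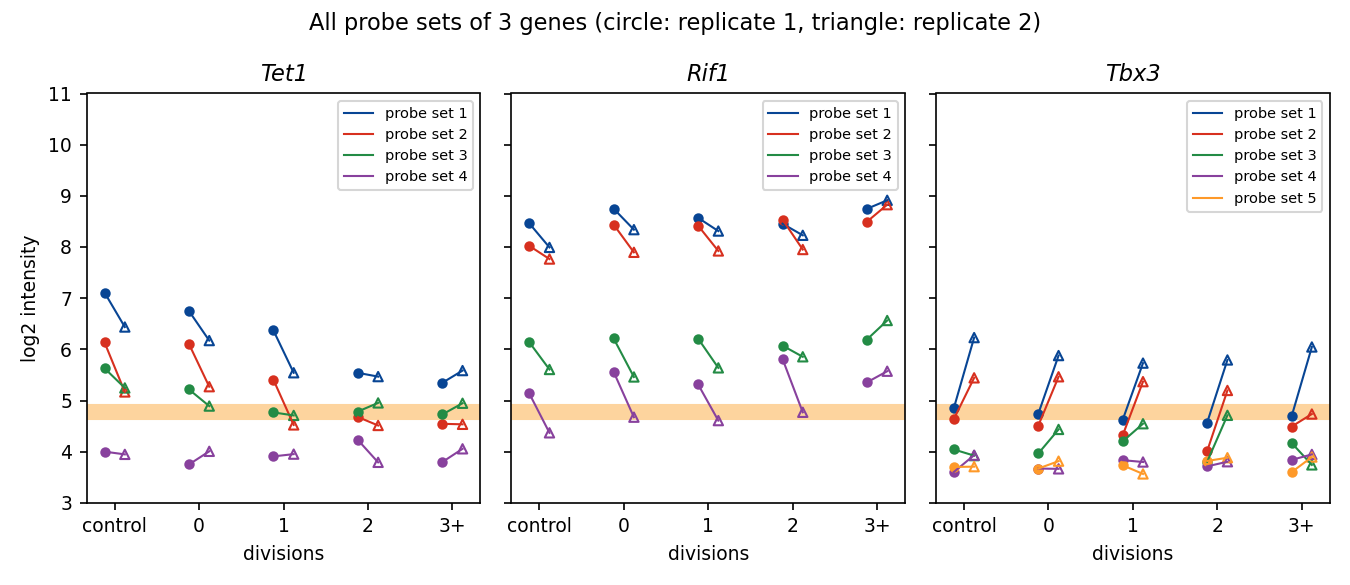
Log2 intensity of every probe set of Tet1, Rif1 and Tbx3, numbered from the brightest, by group; lines join replicate 1 (circle) to replicate 2 (triangle). Tet1 is lower after 3 or more divisions in its 3 brighter probe sets, and the brightest Tbx3 probe set differs between replicate numbers by 1.11 to 1.38 in each group.

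Of the RNA regulators, Lin28a, which blocks the let-7 microRNAs, ranged from 3.50 to 3.86, its paralogue Lin28b from 2.91 to 3.22 and the ubiquitin ligase gene Trim71, itself a let-7 target, from 3.69 to 4.47. Among the Dppa genes, first found by their restriction to pluripotent cells, Dppa2 ranged from 3.15 to 3.57, Dppa3 (Stella) from 4.05 to 4.49 and Dppa4 from 4.09 to 4.46. Dppa5a, at 4.66 to 5.12, lay about the limit and above it on 7 arrays. The F-box gene Fbxo15, a classical reporter locus of reprogramming, stayed between 3.26 and 3.68 on 9 arrays and read 4.21 on replicate 2 of 3 or more divisions, which was still below the limit. Dnmt3l, the cofactor of de novo DNA methylation, read 4.76 and 4.35 in the control and 4.12 and 4.11 after 3 or more divisions, a change of -0.44 that did not pass (adjusted p = 0.16).

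Over the whole list, 1 member was called higher and 3 lower of 31 after 3 or more divisions, where 15.9% of all genes were called higher, 11.7% lower and 27.6% in all. The members' median log2 change was 0.01 and that of all genes 0.02. The 2 groups' arrays did not overlap for 5 members above and 6 below the control, whereas 63.1% of all genes had arrays apart in one direction or the other. With the replicate block 5 members were called, the same 4 and Rif1, beside 37.8% of all genes. The 27 members not called had changes from -0.44 to 0.60, and the median half-width of their 95% intervals was 0.35. Changes smaller than a gene's half-width could not be told from 0. The intervals are not adjusted for the number of genes tested, so larger changes, such as 0.60 for Rif1, also went uncalled. Without replicate 2 of the cohort 0 members passed, and without its replicate 1 L1td1 and Fbxo15 did. Without control replicate 2 Tet1 alone passed, and without control replicate 1 Lefty1, Lefty2, L1td1 and Rif1 did. In bulk RNA, fewer cells with a transcript and less of it per cell cannot be told apart.

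**Figure D4:**
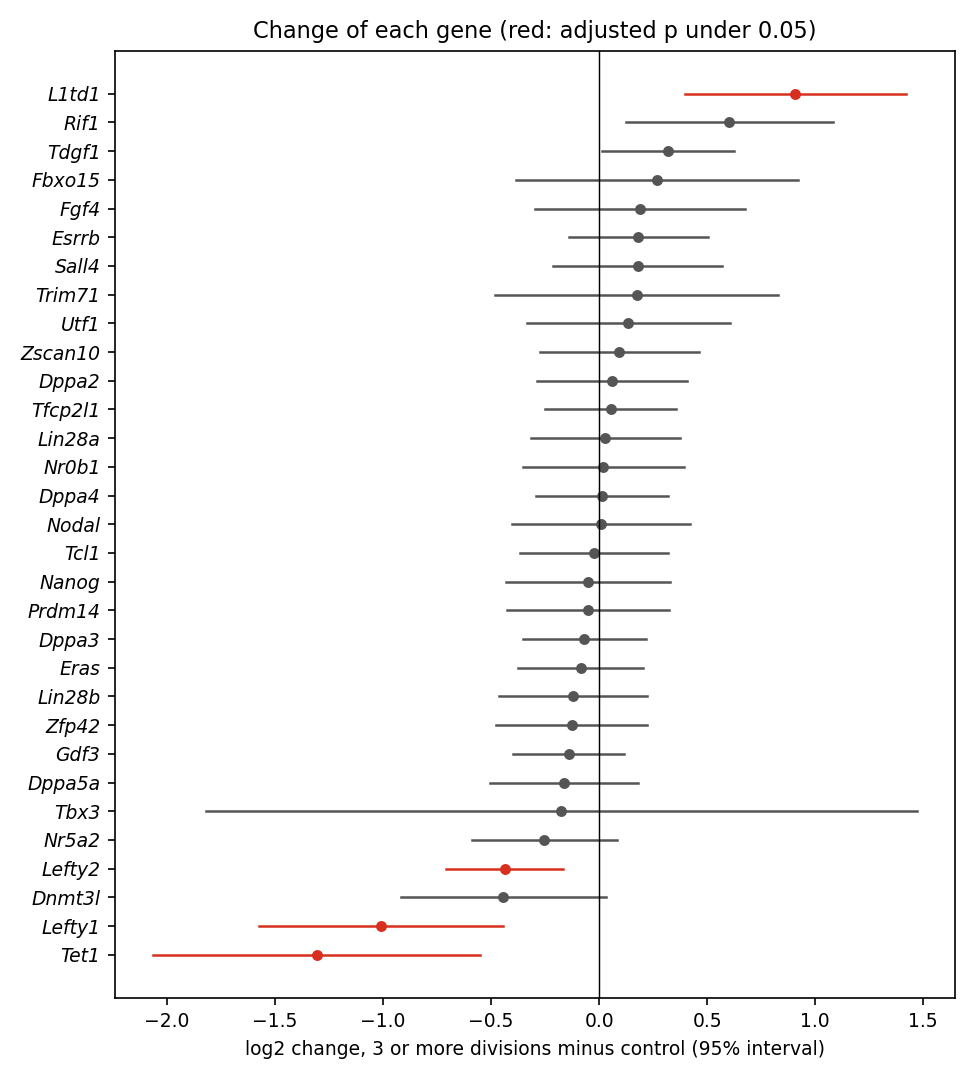
Log2 change of each member in the cohort of 3 or more divisions against the control, as points with 95% intervals from limma; red marks an adjusted p under 0.05. Tet1, Lefty1 and Lefty2 lie below 0 and L1td1 above it, and Tbx3 has the widest interval.

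The comparisons with the control all share its 2 arrays and are not independent. After 0 divisions limma called 0 of 31 members and 0.297% of all genes, and 2 members, Dppa3 and Lefty2, had an unadjusted p under 0.05. The median change of the members was -0.02 and that of all genes -0.0046. With the block 0 members passed, beside 3.25% of all genes. After 1 division 0 members were called (3 at an unadjusted p under 0.05) beside 1.24% of all genes. With the block Lefty1 passed, beside 7.02%. After 2 divisions 0 members were called (2 at an unadjusted p under 0.05) beside 6.12%, and with the block Lefty1 and Tet1, beside 15.5%. The slope over 0, 1 and 2 divisions called 0 members and 0% of all genes, while 2 members and 1561 genes had an unadjusted p under 0.05. With the block it called Tet1, beside 2.17% of all genes. Between 3 or more and 0 divisions L1td1 was called, beside 13.9% of all genes, and the block added Tet1 (-0.99, adjusted p = 0.0177), beside 25.6%. These shares of all genes depend on single arrays. Leaving out any 1 array of the groups compared lowered them to between 0.022% and 0.176% after 0 divisions, 0.022% and 0.423% after 1, 0.533% and 3.15% after 2, and 2.15% and 8.13% between 3 or more and 0 divisions. For 3 or more divisions against the control the share was 14.8% without replicate 2 of the cohort, and at most 22.1% without any other array. RMA is named for 2 groups only, the control and the most divided cohort, so processing and group cannot be told apart where the other cohorts were set against these.

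Values of other kinds moved with the same groups. The summed log2 reading of 5 measured keratinocyte markers, including Krt14 and Krt16, went from 24.2 and 24.5 in the control to 40.3 and 40.5 after 3 or more divisions, and that of the fibroblast markers from 115.3 and 116.9 to 101.8 and 106.1. As a measure of RNA quality, the log2 difference between the 3-prime and 5-prime Actb probe sets was 0.26 on both control arrays and 0.49 and 0.50 after 3 or more divisions. The 4 neural markers summed to 24.8 and 29.5 in the control and to 34.2 and 34.5, the 6 macrophage markers to 29.6 and 30.5 and to 31.7 and 31.9, and the 5 endothelial markers to 22.2 and 22.3 and to 24.7 and 24.8. In both groups 3 of the 5 endothelial and 2 of the 6 macrophage markers were background-like on both arrays. The highest single endothelial reading was 5.93 in the control and 8.35 after 3 or more divisions, so a sum can rest on few genes. The part of these values in the members' changes was not tested.

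Partners of the members were counted the same way after 3 or more divisions, where 15.9% of all genes were called higher and 11.7% lower, with a median change of 0.02. Of 28 other pluripotency regulators and markers measured, 8 rose and 4 fell, with a median of 0.16. With the replicate block 9 rose and 4 fell, beside 3720 of all 18193 genes called higher and 3149 lower. Pou5f1, which is also a transgene, read 7.64 and 8.23 against background-like control readings of 3.92 and 3.61, at least 9.12-fold higher when the control is set at its background limits (limma, adjusted p = 0.000295). Klf2, a factor of the naive state, changed by -3.22 ± 0.98 (SE) and Fgf5, a gene of the primed state, by -2.62 ± 0.56. By the same bound Pou5f1 was at least 2.11-fold higher after 1 division (adjusted p = 0.0437) and at least 2.35-fold higher after 2 (adjusted p = 0.0139). After 0 divisions it read 6.12 and 5.40, at least 2.02-fold higher, which missed the threshold (adjusted p = 0.0678) and passed with the replicate block (adjusted p = 0.0167). The ETS factor gene Etv4 rose after 2 divisions (0.65). Of these 28, 7 were background-like on all arrays. Among them was Sox2, also a transgene, which read 3.55 to 4.10. Whether the Pou5f1 and Sox2 probe sets read the transgene, the cells' own gene or both was not tested.

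Of 23 partners in LIF, Nodal and FGF signalling, 2 rose and 6 fell (beside 15.9% and 11.7% of all genes), with a median of -0.36. With the replicate block 2 rose and 10 fell, beside 3720 of all 18193 genes called higher and 3149 lower. Both chains of the LIF receptor fell, Lifr (log2 change -1.92 ± 0.19 SE) and Il6st (-1.60 ± 0.44), and so did the Nodal and activin receptor gene Acvr2a (-1.17 ± 0.20). Lifr also fell after 2 divisions (-0.82). Dusp6, a phosphatase induced by FGF and ERK signals, rose after 1 division (1.36), after 2 (1.77) and after 3 or more (0.81).

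Around LIN28 and let-7, 1 of 10 measured genes rose and 2 fell, with a median of 0.20, and these 3 of 10 are close to the 27.6% called over all genes. With the replicate block 3 rose and 2 fell, beside 37.8% of all genes called in either direction. The exonuclease gene Dis3l2 (-0.71) and the uridylyltransferase gene Tut4 (-0.63), which act on let-7 precursors with LIN28, were lower, and the microRNA processing gene Drosha was higher (0.62). Hmga2, a let-7 target, was called after 2 divisions (1.05). Of 8 measured partners of Dnmt3l and Tet1, 3 rose and 0 fell, beside 15.9% and 11.7% of all genes, with a median of 0.25. Uhrf1, the guide of maintenance methylation, rose by 2.73 ± 0.39 (SE), Dnmt1 by 1.05 ± 0.28 and the de novo methyltransferase gene Dnmt3b by 0.64 ± 0.15. Uhrf1 had also risen after 2 divisions (1.77).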

How the data were processed

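Total RNA of 10 samples was hybridised to Affymetrix mouse arrays. The authors deposited 1 table of linear intensity for 45101 probe sets, from 5.70 to 26572. For 4 arrays, the control and 3 or more divisions, RMA is given in the submitters' processing notes. For the other 6 the tool is not given. The deposited table holds no detection calls, and the number of arrays limits the precision.

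Intensities were floored at 1, taken to log2 and quantile-normalized. Gene names came from the platform's table (34945 with 1 gene, 932 with several, 9160 others besides 64 control probe sets). Of the 34945, 34741 had a gene ID that RefSeq holds, and 0 symbols changed. Each gene was read by its brightest probe set, by the mean over all arrays. Groups were fitted to all arrays with limma 3.58.1 in R 4.3.3 (lmFit, eBayes, 5 residual degrees of freedom). A slope on the division number was fitted to the 6 arrays of 0, 1 and 2 divisions (4 residual degrees of freedom). Calls were two-sided, at a Benjamini-Hochberg adjusted p under 0.05 over 18193 genes. The procedure was tested on simulated data with independent noise on each array. That simulation lacks the shared deviation of same-numbered samples described below, and so cannot show how it acts on the calls.

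Same-numbered samples deviated together in all 10 pairs of groups (r of 0.477 to 0.872). A pairing by number was modelled in the block fits only, and the main fits left it out. That pairing rests on the data, as no label names a culture in common. Values are without the replicate block unless it is named. The titles call the 2 samples of the control, and those of 3 or more divisions, biological replicates. Those of the other 3 groups are only numbered, with no word on separate cultures or animals. The spread between these samples may be technical, and the p-values of the slope measure that spread alone. The main fits to all arrays pool the spread of all 5 groups. Their p-values therefore rest in part on that spread, also for 3 or more divisions against the control.

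The members, the further gene lists and the tests were chosen with earlier results of these data known. All 31 members are described, in full those called in a comparison, those above the background limit on both arrays of a group, and Nanog. Of each further list up to 3 called genes with the largest changes are named per comparison with the control. Genes of these lists called between 3 or more and 0 divisions, Pou5f1 among them, are not described. Members and further genes named outside this rule were chosen after their values were seen. The alternatives were 2 other normalizations, a floor of 16, 2 other choices of probe set, a filter on dim genes, another variance prior, the replicate block, fits of the compared arrays alone, leaving out each array, and 3 other background limits. Promoter sequences are from RefSeq (GRCm38.p6).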

Additional observations from a re-analysis of the deposited data

Results flagged for a closer look

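L1td1 was picked out because its change differed between cohorts by a test of the difference itself: it stood 0.809 higher on the log2 scale after 3 or more divisions than after 0 (limma, adjusted p = 0.0485, both arrays higher). The adjusted p ranged from 0.0182 to 0.229 over 12 other settings, 5 of which missed the threshold. The cause was not tested.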

How the results depend on the processing

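Against the control, the counts of members called after 0 divisions stayed at 0 in each setting run. After 1 division, after 2 divisions and for the slope they were 0 in each setting except the replicate block, which gave 1, 2 and 1. After 3 or more divisions the block gave 5, and it changed no other call of a member than those named here and in the results. After 3 or more divisions the count of 4 went to 1 (Lefty1) with a floor of 16, to 1 (Rif1) with dim genes left out, where Rif1 was the only member tested, and to 2 (Lefty1 and Tet1) with the compared arrays alone; leaving out 1 array gave 0 to 4. For 3 or more against 0 divisions the count of 1 went to 0 with a floor of 16, with dim genes left out and with the compared arrays alone, and to 2 with the block, and leaving out 1 array gave 0 to 1. The calls of Lefty1, L1td1, Tet1 and Lefty2 against the control held in 9, 8, 7 and 6 of 12 other settings, and none of these changes turned its direction. Median centring ended that of Lefty2 (adjusted p = 0.0705). The count of 20 background-like members was 19 at the 90th percentile, 26 at the 99th and 28 at the median of all genes, and 20 to 21 without 1 array. Signal over background limits most members.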

Other observations

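Of 10 germ line genes, 7 were background-like on all arrays. Ddx4, an RNA helicase of germ cells, was not: it read 9.59 and 7.43 in the control, 7.05 and 5.80 after 0 divisions, 8.26 and 6.08 after 1, 7.30 and 6.57 after 2, and 4.74 and 4.21 after 3 or more. Both readings after 3 or more divisions were under the background limit, so the fall there has only a bound: with that cohort set at its limits, Ddx4 was at least 13.1-fold lower than in the control (limma, adjusted p = 0.0111). Replicate 1 was the higher array in all 5 groups. The X-linked homeobox gene Rhox5 rose there by 1.90 ± 0.44 (adjusted p = 0.0142), with 6.61 and 6.57 against 5.23 and 4.15, the last being under the limit. The list had 1 gene called higher and 1 lower beside 15.9% and 11.7% of all genes, and a median change of -0.02 against 0.02 for all genes.

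Of the 31 members, 6 had the same sign of difference between replicate numbers in all 5 groups, as did 4459 of the 18193 genes.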
